A study of Caenorhabditis elegans with 9 samples.

Results

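The transcriptome of wild type Caenorhabditis elegans (strain N2) was described from 3 libraries of whole larvae in the lethargus that closes the fourth larval stage (L4). The wild type libraries are 3 of 9 in the series and were taken as members by their strain label. The other 6 carry nas-38(tm2655) or nas-38(ok3407), 2 alleles of an astacin protease gene, and enter here for read depth alone. Populations were synchronised by bleaching, fed E. coli OP50 at 20 °C, and the larvae that were asleep were picked by hand, so that each library holds the RNA of whole animals. The labels give neither the number of worms pooled in a library nor the hours since the last molt, and the design text states that the replicates were biological. Only the wild type libraries are described, and no test between groups was made.

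Lethargus is the sleep-like quiescence that C. elegans enters before each of its molts, when feeding and movement stop while a new cuticle is laid down beneath the old one. The cuticle is built mainly of collagens secreted by the epidermis, in waves of transcription that recur with each larval stage. The L4 molt separates larva from adult, and at this time the hermaphrodite germ line has made sperm and turns to oocytes.

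Each wild type library gave 13.8, 32.9 and 24.3 M reads in genes (M, megareads) for replicates 1, 2 and 3, where the 9 libraries together span 13.8 to 40.5 M. Replicate 1 was the shallowest library of the series. By correlation across genes it differed most from the other 2. By the share of genes with over 2-fold range, replicates 1 and 3 were the closest pair, as given with the spread at the end. Levels are given as deposited RPKM, reads in exons per kilobase of exon and per megaread mapped. This scales for length, but in genes with a transcript it leaves out reads entered as intron. Their share was larger in short genes, as given below, so levels of short and long genes are not fully comparable. A single read on a coding length of 1 kilobase was worth 0.0692 RPKM in replicate 1, 0.0287 RPKM in replicate 2 and 0.0391 RPKM in replicate 3. Reads have no molecular identifiers, so limits given for a count of 0 cover counting error alone. Reads that the headers call unique, here uniquely placed, made up 94.2% ± 0.595 of gene reads (SD, n = 3), and whether a read in overlapping genes counts as unique is not stated there.

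Of the 46699 genes in the tables, 12615 reached at least 1 RPKM in all 3 libraries, which is the level that counts as detected here. Among the 20306 genes with an annotated transcript 12317 were detected, or 60.7%, and 2201 had 0 reads in all 3 libraries. The 5788 that remained had reads but fell under 1 RPKM in at least 1 library. At the upper end 1089 genes with a transcript reached 100 RPKM in every library and 152 reached 1000 RPKM. The median level of a detected gene with a transcript was 16.3 RPKM.

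Protein synthesis led the list of abundant messages. The gene with the highest mean level was eef-1A.1, an elongation factor that brings aminoacyl-tRNA to the ribosome (chromosome III, 6970139 to 6971680, minus strand, as the tables give it). It stood at 7905, 7123 and 8164 RPKM in replicates 1, 2 and 3, a mean of 7731 ± 542 RPKM (SD, n = 3). Next came far-2, a secreted fatty acid and retinol binding protein, at 5734, 5142 and 5847 RPKM. The highest ribosomal protein genes were rps-25 at 4705, 4104 and 4782 RPKM and rps-23 at 4468, 3918 and 4348 RPKM.

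Of the 30 genes with the highest mean RPKM, 20 belonged to the cytosolic ribosomal protein family (rpl, rps and rla names), beside rpl-36.A and ubq-2, which encodes ubiquitin joined to a ribosomal protein. The family was taken by name pattern, which rpl-36.A falls outside. Y37E3.8 has a clone name, was placed in no family, and stood at 4420, 3422 and 4068 RPKM. The list also held 3 cuticle collagens, namely col-93, col-117 and col-139. The muscle gene pat-10, the troponin C of body wall muscle, stood at 3348, 2793 and 3637 RPKM. The gene ant-1.1, whose product exchanges ATP and ADP across the inner mitochondrial membrane, stood at 3164, 2978 and 3504 RPKM. Within each library's own 30 highest genes, 22 of these 30 were present in all 3. Replicate 2 had the lowest value of each of the 30 genes.

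**Figure D1:**
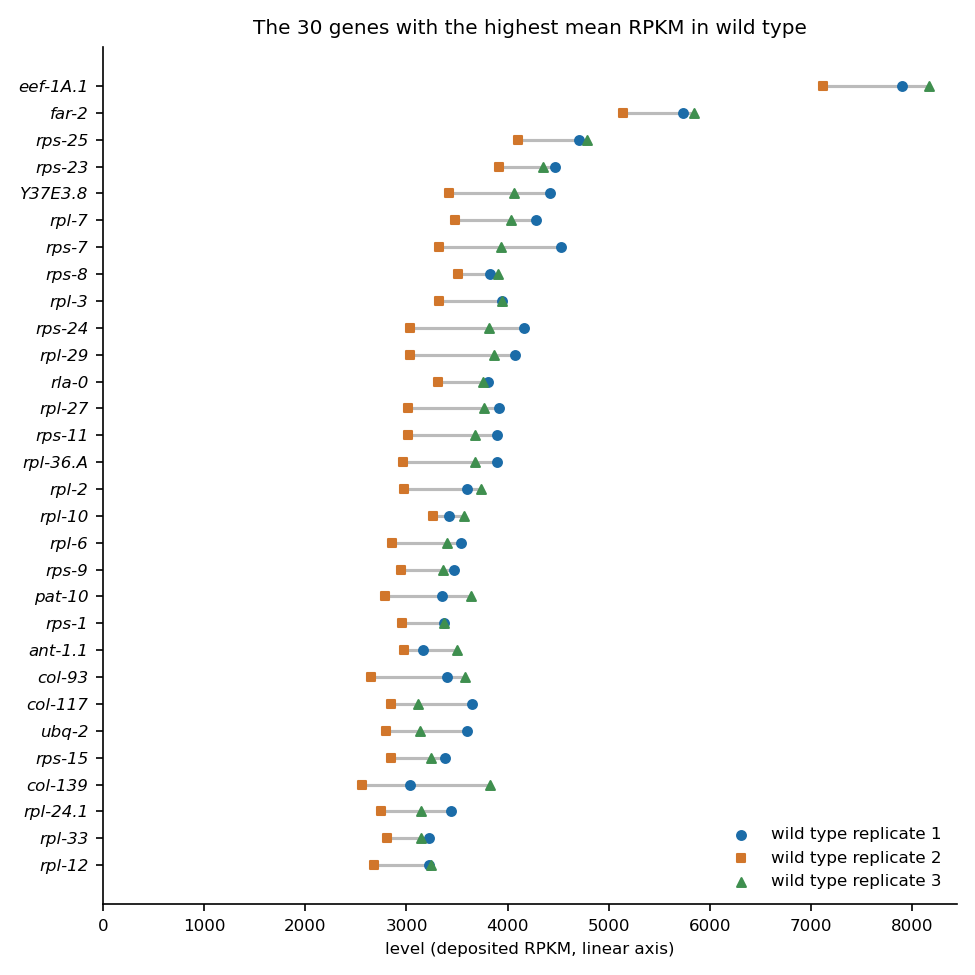
Deposited RPKM (linear axis) of the 30 genes with the highest mean, 1 row per gene, with a point for each wild type library and a grey line from the lowest to the highest. Elongation factor gene eef-1A.1 lies apart at 7123 to 8164 RPKM, and most rows below far-2 are ribosomal protein genes, with means from 3048 RPKM for rpl-12 to 4530 RPKM for rps-25.

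By number of reads, which grows with length, the order changed. After eef-1A.1, with 166985, 362379 and 304462 reads, came unc-54, the main myosin heavy chain of body wall muscle, with 96586, 215420 and 167902 reads. The yolk protein gene vit-6 took 0.560%, 0.399% and 0.980% of gene reads in replicates 1, 2 and 3, and vit-2 took 0.465%, 0.388% and 0.666%. Also among the 10 were eef-2, rpl-3, rla-0, far-2, the adenosylhomocysteinase gene ahcy-1 and hsp-1, a constitutive Hsp70 chaperone. The 10 genes with most reads held 5.65% ± 0.673 of all gene reads, the 100 with most reads 25.5% ± 2.19 and the 1000 with most reads 63.4% ± 2.66 (SD, n = 3 each). The share was lowest in replicate 2 at each of these sizes, at 5.03%, 23.1% and 60.4%.

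Gene families fell into 3 broad kinds. Families were taken by gene name, and their counts include genes without an annotated transcript. The share to set beside them is the 60.7% detected among all genes with an annotated transcript. Families of the cell's basic machinery were detected nearly whole. All 63 mitochondrial ribosomal protein genes, 32 proteasome subunits, 28 translation factors, 31 nuclear-encoded subunits of the respiratory chain and 20 subunits of the vacuolar ATPase reached 1 RPKM in every library. Of 79 cytosolic ribosomal protein genes 78 did, with a median of 2625 RPKM. They took 12.1% ± 0.999 of gene reads and 22.1% of summed RPKM (SD, n = 3). The exception was rpl-37, looked up after its value was seen, at 0, 0 and 0.14 RPKM. Mitochondrial ribosomal protein genes had a median of 42.7 RPKM, and the highest of them, mrps-14, stood at 118.6, 90.7 and 97.2 RPKM.

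Cuticle collagens were the second large block. Of 179 collagen genes 115 were detected, or 64.2%, near the 60.7% of all genes with a transcript, and 5 had 0 reads. They took 9.10% ± 0.958 of gene reads (SD, n = 3). Among the 177 collagens with a transcript, 34 had a mean above 1000 RPKM, 45 lay between 100 and 1000 RPKM, 47 between 1 and 100 RPKM and 51 under 1 RPKM. The 20 highest held 53.6% of the collagen RPKM. The leading members were col-93 at 3403, 2654 and 3577 RPKM, col-117 at 3649, 2852 and 3118 RPKM and col-139 at 3035, 2559 and 3822 RPKM.

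Collagen genes resemble each other, and the share of uniquely placed exon reads shows where a level is uncertain. It was 1.07% for col-117, 71.4% for col-93 and 100% for col-139, and 69.4% over the family. In 27 collagens with at least 1 RPKM it was under 50%, so their levels rest mostly on reads that were not unique. Near copies and overlapping genes were not told apart as the source of these reads. Major sperm proteins, the cytoskeletal and signalling proteins of nematode sperm, are likewise near copies, with 61.7% uniquely placed exon reads over the family.

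Sperm and germ line families were strongly represented. Of 35 msp genes, of which 31 have an annotated transcript, 28 were detected. Of these 28, 24 were above 100 RPKM in every library. The highest were msp-59 at 867, 820 and 913 RPKM, msp-51 at 593, 719 and 860 RPKM and msp-19 at 683, 650 and 710 RPKM. Of 30 Argonaute genes, which bind small RNAs, 28 were detected. The highest was wago-1 at 153, 198 and 176 RPKM, ahead of csr-1 at 108, 133 and 125 RPKM. Vitellogenins are yolk proteins known from the intestine of the adult hermaphrodite. All 6 of their genes were detected in these larvae, with vit-6 at 1065, 752 and 1866 RPKM and vit-2 at 907, 749 and 1297 RPKM.

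At the other end stood the families of chemoreceptors, receptor guanylyl cyclases and neuropeptide receptors. Of 1629 chemoreceptor genes 1340 have an annotated transcript. Over all 1629, 11 were detected, 858 had 0 reads in all 3 libraries, and 655 had 1 to 10 reads over the 3 libraries together. The highest were srr-4 at 39.1, 62.3 and 40.9 RPKM, srh-237 at 11.6, 16.8 and 9.79 RPKM and srv-1 at 8.96, 12.7 and 8.01 RPKM. Receptor guanylyl cyclases, many of which act in sensory neurons, were detected in 3 of 32, with gcy-28 at 21.7, 30.9 and 27.8 RPKM and gcy-12 at 19.1, 23.5 and 18.8 RPKM. Neuropeptide receptors of the npr, frpr and dmsr names were detected in 13 of 70, with npr-5 the highest at 10.5, 12.5 and 8.97 RPKM. In whole animals a message of few cells is diluted, and fewer cells of a type and less RNA per cell cannot be told apart.

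Precursors of neuropeptides were detected in a larger part than the receptors. FMRFamide-like peptide genes (flp) were detected in 30 of 31, led by flp-14 at 51.0, 40.7 and 52.9 RPKM and flp-28 at 50.3, 39.9 and 50.3 RPKM. Other neuropeptide-like genes (nlp) were detected in 38 of 44. Of these nlp-24 stood highest at 453, 447 and 697 RPKM and nlp-33, known as an epidermal antimicrobial peptide, at 476, 262 and 300 RPKM. Insulin-like peptide genes were detected in 18 of 39, with ins-37 the highest at 26.6, 24.2 and 31.8 RPKM.

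Large families that diversify between nematode species were detected in part. Nuclear hormone receptors, ligand-regulated transcription factors, were detected in 146 of 283, and none reached 100 RPKM in all 3 libraries. Their highest members were nhr-114 at 88.1, 111 and 108 RPKM and nhr-49, a regulator of fat metabolism, at 41.1, 54.3 and 41.3 RPKM. C-type lectins, many of them linked to defence, were detected in 74 of 264 with 68 at 0 reads. Yet clec-63 stood at 911, 583 and 777 RPKM. F-box proteins were detected in 94 of 390. An annotated transcript was given for 342 of these 390 genes, for 248 of the C-type lectins and for 273 of the nuclear hormone receptors. Cytochromes P450 were detected in 41 of 81, or 50.6%, with an annotated transcript for 75. UDP-glucuronosyltransferases were detected in 42 of 65, or 64.6%, near the 60.7% of all genes with a transcript.

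**Figure D2:**
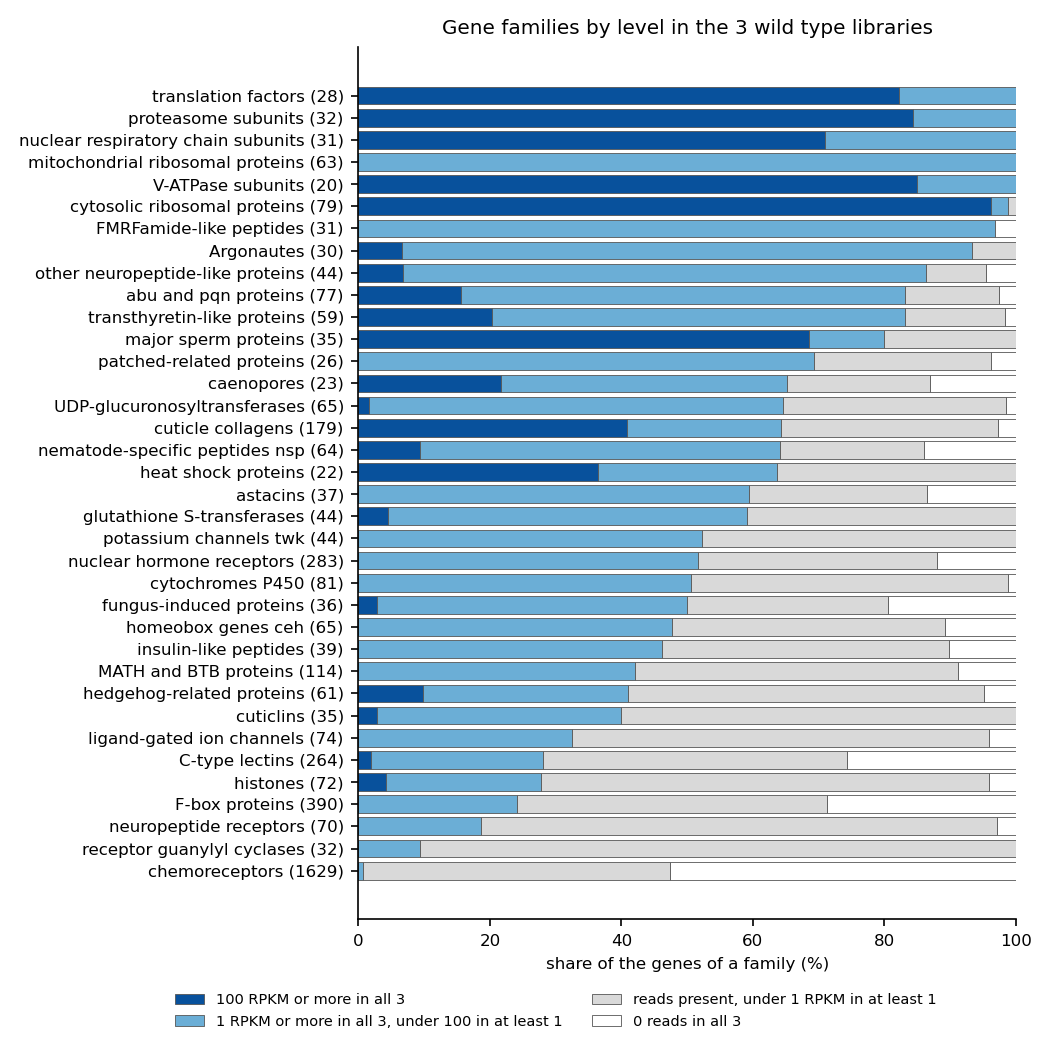
Share of the genes of each family (number of genes in brackets) in 4 level classes over the 3 wild type libraries, from at least 100 RPKM in all 3 (dark blue) through detected at lower level (light blue) and reads without detection (grey) to 0 reads (white). Translation factors, proteasome and respiratory chain subunits fill their bars in blue, while 11 of 1629 chemoreceptors do.

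Histones were detected in 20 of 72 genes. The members with the highest levels were his-72 and his-74, which encode the replacement histone H3.3, at 207, 174 and 152 RPKM and at 100, 121 and 110 RPKM, and his-37 at 106, 121.8 and 109 RPKM. Replication-dependent histone messages lack a poly(A) tail, and the libraries were made with an mRNA kit. The part of the kit in the low histone levels was not tested.

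Genes that mark cell types were used to check the label of whole L4 larvae. All 13 markers of body wall muscle were detected, with a median of 902 RPKM. The muscle actin gene act-4 stood at 1911, 1830 and 2234 RPKM and the paramyosin gene unc-15 at 990, 920 and 993 RPKM. All 12 intestinal markers were detected with a median of 114 RPKM, led by the protease gene asp-1 at 2090, 2013 and 2864 RPKM. The intestinal GATA factor elt-2 stood at 23.9, 23.3 and 19.3 RPKM. Pharyngeal muscle markers were detected in 6 of 7, with the myosin gene myo-2 at 70.6, 70.4 and 79.6 RPKM.

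All 14 neuronal markers found in the tables were detected, with a median of 14.7 RPKM. Synaptobrevin, encoded by snb-1, stood at 136, 132 and 113 RPKM and the synaptic vesicle GTPase gene rab-3 at 20.2, 19.1 and 20.6 RPKM. Genes of single transmitter systems stood at different levels. Acetylcholine markers unc-17 and cha-1 lay between 2.22 and 3.64 RPKM, the GABA enzyme gene unc-25 between 13.4 and 16.6 RPKM and the serotonin enzyme gene tph-1 between 0.52 and 0.70 RPKM. Glial markers were detected in 3 of 8 and seam cell markers in 2 of 7, where the seam cells are the stem-like cells of the lateral epidermis.

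All 19 germ line markers, 11 oocyte markers and 12 of 14 sperm markers were detected, with medians of 51.5, 67.3 and 95.2 RPKM. The germ granule helicase gene glh-1 stood at 285, 268 and 295 RPKM, the translational repressor gene gld-1 at 241, 253 and 249 RPKM and the yolk receptor gene rme-2 of oocytes at 59.8, 82.3 and 72.0 RPKM. Each of the 11 oocyte markers was lowest in replicate 1. Sperm markers were lowest in replicate 3 in 11 of 14. In all detected genes 39.8% were lowest in replicate 1 and 41.3% in replicate 3.

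None of 9 male markers was detected, and cwp-1, cwp-2 and cwp-3 had 0 reads in all 3 libraries. For these a count of 0 allows up to 0.123, 0.125 and 0.0841 RPKM over the 3 libraries together. The doublesex-related gene mab-3 stood at 0.11, 0.16 and 0.22 RPKM. All markers but these cwp genes had reads, with the highest mean at 0.472 RPKM. Genes of few cells, such as tph-1, also lay under 1 RPKM here. The markers thus cannot say whether males were among the picked larvae.

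**Figure D3:**
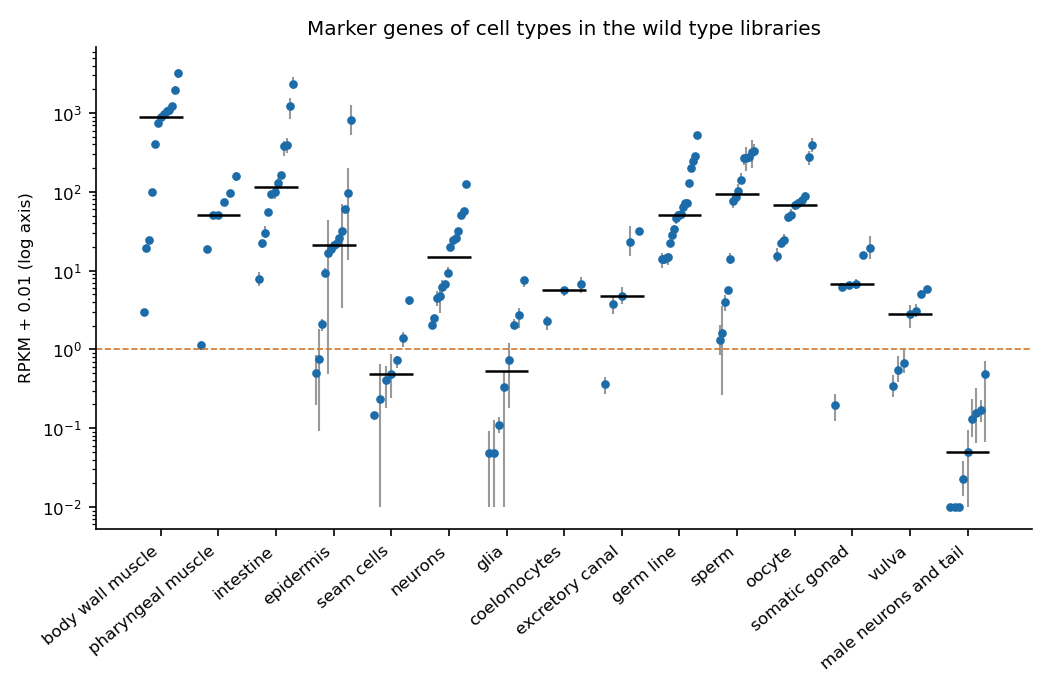
Mean RPKM plus 0.01 (log axis) of the marker genes of 15 cell types or tissues, with 1 point per gene, a grey line from its lowest to its highest wild type library, and a black bar at the median of the list; the dashed line marks 1 RPKM. Body wall muscle has the highest median at 902 RPKM, and all male markers lie under the dashed line.

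Cuticle genes known from different stages stood at different levels. Epidermal markers were detected in 10 of 13, among them the factor genes lin-26 at 27.2, 26.5 and 25.01 RPKM and elt-3 at 18.6, 24.5 and 24.005 RPKM. The adult cuticle collagens col-19, col-7 and col-62 were high, with col-19 at 1451, 1537 and 2374 RPKM, col-7 at 557, 556 and 796 RPKM and col-62 at 571, 589 and 810 RPKM. Exon reads were unique in 100% for col-19 but in 33.4% for col-7 and 33.4% for col-62, whose levels thus rest mostly on reads that were not unique. The strut collagens bli-1 and bli-2, which form the pillars between the layers of the adult cuticle, stood at 3.87, 0.04 and 0.05 RPKM and at 9.10, 0.52 and 0 RPKM. Both were higher in replicate 1 than in either other library, and 26.4% of the exon reads of bli-2 were unique. A further collagen gene with a bli name, bli-6, is outside this list and stood at 1345, 1159 and 969 RPKM. The 6 furrow collagens, which mark the rings of the cuticle, had a median of 0.809 RPKM, and dpy-8 alone was detected, at 3.06, 1.29 and 2.10 RPKM. No member of the dauer cuticle list was detected among 4.

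Molting genes were detected in 23 of 35. The peroxidase gene mlt-7 stood highest at 83.9, 137 and 110 RPKM, before the proprotein convertase gene bli-4 at 78.1, 92.4 and 79.0 RPKM. The nuclear receptor gene nhr-23, a driver of the molting cycle, stood at 17.7, 24.1 and 21.8 RPKM. Of the 35 genes 25 were highest in replicate 1 and 22 were lowest in replicate 3, against 29.1% highest in replicate 1 and 41.3% lowest in replicate 3 over all detected genes. Heterochronic genes, which time the larval stages, were detected in 9 of 10, including lin-29, the zinc finger gene of the switch to adult, at 7.53, 8.36 and 8.69 RPKM and lin-41 at 30.7, 40.1 and 34.6 RPKM.

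Sleep genes were detected in 23 of 30. The peptide gene flp-11, which the sleep-active neuron RIS uses to induce lethargus, stood at 17.2, 17.7 and 18.1 RPKM from 107, 297 and 218 reads. The RIS transcription factor gene aptf-1 stood at 0.25, 0.39 and 0.50 RPKM. Peptide genes of the stress-sleep neuron ALA, flp-13, flp-24 and nlp-8, stood at 10.5, 14.5 and 8.74 RPKM, at 25.1, 18.996 and 23.6 RPKM and at 14.7, 16.8 and 12.6 RPKM. The EGF gene lin-3 stood at 10.4, 12.7 and 11.3 RPKM and its receptor gene let-23 at 4.01, 5.77 and 4.31 RPKM.

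The peptide gene nlp-22, known to promote lethargus, had 0 reads in all 3 libraries, which allows up to 0.130 RPKM. The gene nas-38 itself stood at 49.5, 23.5 and 23.2 RPKM, and was about as high in replicates 2 and 3 while replicate 1 lay above them. The wake-promoting peptide gene pdf-1 stood at 19.8, 32.4 and 15.3 RPKM, with its receptor gene pdfr-1 at 5.49, 6.56 and 5.41 RPKM.

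Reporters of acute heat stress were near the floor. The small heat shock gene hsp-16.2 stood at 0.32, 0.66 and 0.09 RPKM and the inducible hsp-70 at 0, 0.16 and 0.06 RPKM. The endoplasmic reticulum chaperone gene hsp-4 stood at 215, 466 and 303 RPKM and the mitochondrial chaperone gene hsp-6 at 329, 443 and 354 RPKM, with replicate 2 the highest in both. The epidermal antimicrobial peptide gene nlp-29 stood at 133, 43.7 and 79.9 RPKM.

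Reads entered as intron made up 9.34%, 9.22% and 8.83% of gene reads in replicates 1, 2 and 3, a mean of 9.13% ± 0.267 (SD, n = 3). Exon reads that crossed a junction between exons were 39.0%, 40.5% and 38.1% of exon reads. Genes without an annotated transcript have no exon in the tables and all their reads count as intron, which gave 7.11% ± 0.353 of intron reads. Another 7.25% ± 0.376 came from 582 genes with a single exon, of which 99.8% have an exon as long as the gene.

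Single-exon genes have no intron in these models, yet 22.4% ± 1.27 of their reads were entered as intron, where genes with several exons had 8.11% ± 0.194 (SD, n = 3 each). Most gene models end at the coding sequence. In 93.4% of the 19384 coding genes that could be matched, start and end equal the coding span of the WBcel235 annotation, and 95.5% of exon lengths are multiples of 3, so that most models hold no untranslated regions. How the authors' software treated a read that crosses the edge of such a model is not given in the sources used here.

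Intron share fell with coding length. Over 9220 genes with at least 100 reads in each library the median share was 5.72%. In genes of several exons it was 25.04% up to 300 coding bases, 13.4% from there to 600, 7.31% to 1200, 4.74% to 2400, 3.05% to 4800 and 1.95% above. In single-exon genes it was 49.1% up to 300 bases, 30.9% to 600 and 8.30% to 1200. At a coding length of 1200 to 2400 bases, total intron length had less bearing: the median was 4.72% in genes with at most 500 bases of intron, 4.34% with up to 2000, 5.11% with up to 10000 and 7.88% with more.

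**Figure D4:**
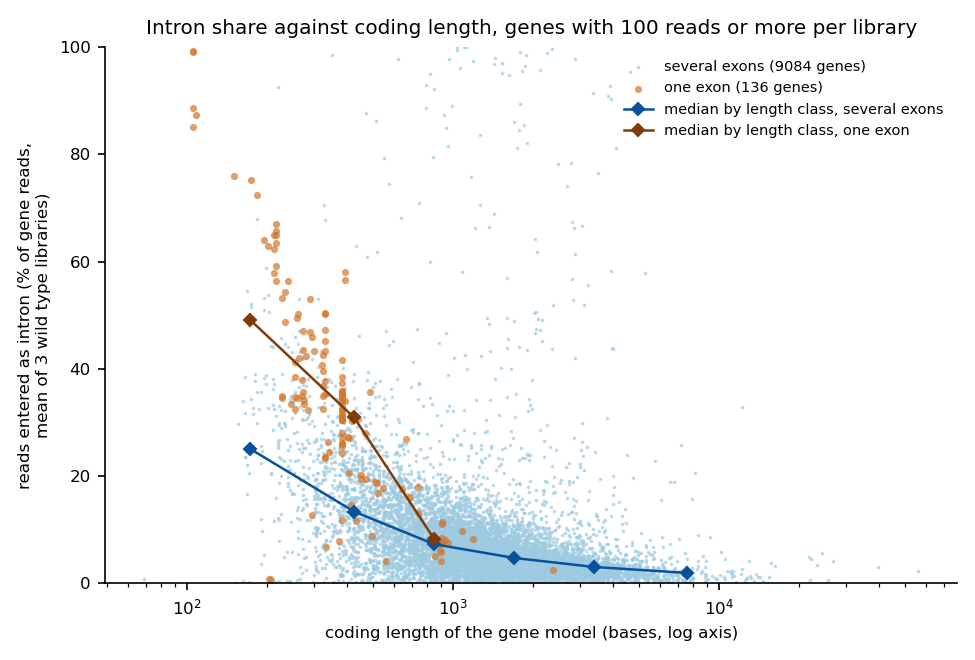
Reads entered as intron, as a percent of a gene's reads (mean of 3 wild type libraries), against coding length in bases (log axis), for 9220 genes with at least 100 reads in each library; orange points are the 136 single-exon genes, and diamonds join the medians of length classes. Among genes with several exons the median is 25.04% in the shortest class and 1.95% in the longest.

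Families with short genes stood high on this scale. The median intron share was 32.5% in 26 msp genes, with a median coding length of 384 bases, 10.7% in 77 cytosolic ribosomal protein genes of 450 bases and 1.04% in 6 vitellogenins of 4827 bases. Cuticle collagens, with a median coding length of 903 bases, had a median intron share of 4.58% over 105 genes.

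In 123 of the 9220 genes over 50% of reads were entered as intron, and of the 10 named genes with the highest share 8 overlap another gene in the tables. In srb-13, a chemoreceptor gene on chromosome II (5155436 to 5157625), 4493, 7721 and 5750 reads were entered as intron, 99.97% of its reads on average. The sperm gene msp-45 lies inside it on the same strand (5156700 to 5157083) and had 4, 4 and 3 reads. The pair gst-9 and msp-33 showed the same, with 4810, 8809 and 6061 intron reads in gst-9 beside 1, 3 and 3 reads in msp-33 on the opposite strand. In bath-25, with 1913, 1929 and 1463 intron reads, the nested gene nspd-10 had 1, 3 and 4 reads.

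Other nested genes had more reads than the msp genes above, though in the collagens few were unique. The collagen gene col-122 had 23179, 44575 and 56590 reads, of which 13.4% were unique, while its host lron-14 on the opposite strand had 5270, 10081 and 14438 intron reads. In dph-2, which hosts col-39 and other genes, 16038, 30261 and 36675 reads were entered as intron, beside 12606, 30731 and 25164 reads in col-39, of which 19.1% were unique. Of all reads of lron-14 and dph-2, 28.0% and 16.6% were unique. In glr-4, a glutamate receptor gene, 5348, 9892 and 8058 reads were entered as intron, beside 6280, 12950 and 12387 reads in the nested gene C06A8.3. The remaining genes of the 10 with the highest share were irld-23, the single-exon gene nspa-1 of 105 bases, gpa-18 and cut-5, at 97.5% to 99.95%.

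Detection was lower in nested genes as a class. Of 40 genes with a transcript that lie wholly inside another on the same strand 12 were detected, and 14 had 0 reads. Of 507 inside a gene on the opposite strand 245 were detected, or 48.3%. Among 19759 that are not nested 12060 were detected, or 61.0%. Of the 7 msp genes that were not detected, msp-45, msp-33 and msp-31 are nested, and none of their reads was uniquely placed. The others are not nested: msp-37 and msp-52 have no annotated transcript, while msp-32 and msp-58 have one. The part of read assignment in these low levels was not tested.

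Across genes the libraries were alike. Pearson's r of log2(RPKM + 1) over 46699 genes was 0.989 for replicates 1 and 2, 0.989 for replicates 1 and 3 and 0.992 for replicates 2 and 3. Many of these genes had no read in any library: 2201 with a transcript, and all but 1619 of the 26393 without one. Over genes with a mean of at least 1 RPKM the lowest r was 0.964. These values describe likeness across genes, which share length and base composition and are not independent replicates. The biological coefficient of variation, the spread between libraries beyond counting error, was 23.8% over 14165 genes (edgeR common dispersion). By level the median of the estimates per gene (edgeR tagwise dispersion) was 29.7% up to 1 CPM (reads per megaread) and 28.8% between 1 and 10. It was 19.3% between 10 and 100, 17.3% between 100 and 1000, and 18.9% above 1000.

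Of 8021 genes with a mean of at least 10 RPKM, 593 had a highest library over 2 times the lowest, or 7.39%. The median range was 0.39 on the log2 scale, or 1.31 times. Among the 593 the highest library was replicate 2 in 284, replicate 1 in 235 and replicate 3 in 74, and the lowest was replicate 3 in 273, replicate 1 in 193 and replicate 2 in 127. Typical genes stood higher in replicate 2: over the 8021 genes the median log2 difference was -0.14 for replicate 1 minus replicate 2 and 0.15 for replicate 2 minus replicate 3. With 2 libraries in place of 3 the share was 3.63% without replicate 1, 3.08% without replicate 2 and 4.20% without replicate 3.

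Cuticle collagens led the genes with the widest ranges. Among the 20 genes with the widest range 7 were cuticle collagens, 15 were highest in replicate 1 and 14 were lowest in replicate 3. The first was lon-3, a collagen that affects body length, at 32.6, 2.15 and 0.20 RPKM in replicates 1, 2 and 3. Its exon reads were uniquely placed in 47.3%. The collagen genes rol-8, sqt-2, sqt-1, rol-6 and sqt-3, all known from mutants with altered body shape, were likewise highest in replicate 1 and lowest in replicate 3, with sqt-3 at 199, 76.4 and 13.7 RPKM and rol-6 at 70.2, 23.3 and 3.32 RPKM. The molting gene mlt-10 stood at 44.0, 5.93 and 0.47 RPKM.

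A second set of wide genes was lowest in replicate 1. Y41C4A.11 stood at 16.40, 571 and 338 RPKM, cdr-4 at 17.3, 356 and 111 RPKM and asp-12, an aspartyl protease gene, at 7.34, 122.04 and 128 RPKM. The desaturase gene fat-7, which makes oleic acid, stood at 11.4, 119.2 and 169 RPKM, and arf-1.1 at 10.5, 150 and 60.8 RPKM. In each of these 5 genes both other libraries were over 5 times replicate 1.

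**Figure D5:**
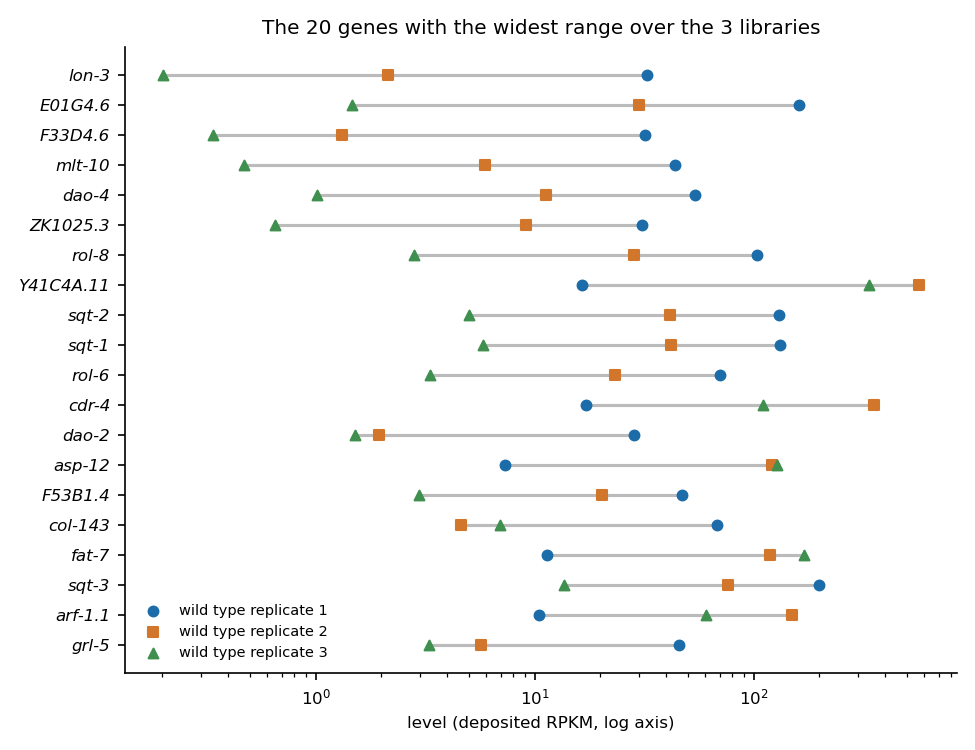
Deposited RPKM (log axis) of the 20 genes with the widest range among genes with a mean of at least 10 RPKM, 1 row per gene with a point for each wild type library. In 15 of 20 rows the blue point of replicate 1 is at the right end, and in the 5 others, such as fat-7 at 11.4 RPKM, it is at the left end.

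Families differed in spread. Among cuticle collagens with at least 10 RPKM 30 exceeded a range of 2 times, or 28.8%, where 7.39% of all genes did, and 27 of the 30 were highest in replicate 1. The count was 14 without replicate 1, 24 without replicate 2 and 15 without replicate 3. Of 23 UDP-glucuronosyltransferases, which conjugate lipophilic compounds, 12 exceeded it and 10 of these were highest in replicate 2, among them ugt-62 at 115, 496 and 156 RPKM. That count was 10, 3 and 5 without replicates 1, 2 and 3. All 5 cytochromes P450 beyond this range, of 17, were likewise highest in replicate 2, and that count was 3, 0 and 5 without replicates 1, 2 and 3. After scaling with TMM factors, which take out the general shift, 27 of 34 collagens beyond the range were highest in replicate 1, 9 of 11 UDP-glucuronosyltransferases in replicate 2 and 4 of 5 vitellogenins in replicate 3.

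Vitellogenins with a wide range were lowest in replicate 2, as were 127 of the 593 genes beyond 2 times over all genes. Of 6 vitellogenins 5 exceeded a range of 2 times and all 5 of these were lowest in replicate 2, with vit-5 at 181, 33.8 and 325 RPKM. The count was 5 without replicate 1, 0 without replicate 2 and 4 without replicate 3. The same library was lowest in 3 of 4 caenopores, small pore-forming peptides, beyond that range of 14, with spp-5 at 823, 446 and 921 RPKM. The caenopore count was 4, 1 and 1 without replicates 1, 2 and 3. All 8 nlp genes beyond it, of 30, were also lowest in replicate 2, and that count was 5, 1 and 6 without replicates 1, 2 and 3. Of the 10 C-type lectins beyond it, of 40, 6 were lowest in replicate 3 and 4 in replicate 2.

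Steady families included the basic machinery. None of 28 translation factors, 32 proteasome subunits, 20 vacuolar ATPase subunits, 30 respiratory chain subunits, 25 Argonautes or 27 nuclear hormone receptors with at least 10 RPKM exceeded a range of 2 times. Their median log2 range ran from 0.20 in translation factors to 0.32 in Argonautes, against 0.39 over all genes. Of the cytosolic ribosomal protein genes 2 of 78 exceeded a range of 2 times, and of the mitochondrial ones 1 of 63. None of the 19 germ line, 11 oocyte, 12 body wall muscle or 7 neuronal markers with at least 10 RPKM did. At the 7.39% of all genes, families and lists this short would hold few or none. Of the epidermal markers 4 of 9 exceeded a range of 2 times, and of the sperm markers 2 of 10, all highest in replicate 1. The 4 epidermal ones are the molting gene mlt-10 and the collagen genes dpy-5, rol-6 and sqt-3, which are also counted with the cuticle collagens above. The epidermal factor genes lin-26 and elt-3 had log2 ranges of 0.12 and 0.40. The gene with the narrowest range above 100 RPKM was the alpha-tubulin gene tba-2 at 761, 762 and 761 RPKM, where the highest library exceeded the lowest by 0.206%. Among the 10 narrowest were also the beta-tubulin genes tbb-2 and tbb-1, vha-16 of the vacuolar ATPase, the calponin-related gene cpn-3, the pyruvate dehydrogenase gene pdhb-1, the phosphoglycerate kinase gene pgk-1, the nonmuscle myosin gene nmy-1, larp-1 and C34E7.4, all within 2.36%. Of 10 common reference genes none exceeded a range of 2 times, and the actin gene act-1 stood at 1932, 2003 and 2207 RPKM. Only 0.0631% of the exon reads of act-1 were unique, so its level rests on reads that match elsewhere too or lie in more than 1 gene.

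Detection also varied by chromosome. It was highest on chromosomes III and I, at 75.9% of 2677 and 73.9% of 2892 genes with a transcript, and lowest on chromosome V, at 44.3% of 5107. Between them lay IV at 64.6%, II at 60.0% and X at 58.4%. Detected genes of X had a median of 8.91 RPKM, where those of the autosomes had medians of 14.3 to 19.3 RPKM. By library the median of X was 9.05, 9.16 and 8.28 RPKM, and the lowest autosomal median, that of V, was 13.5, 15.6 and 12.9 RPKM, so X lay below every autosome in each library. Among detected genes, leaving out ribosomal protein, chemoreceptor and collagen genes gave a median of 8.76 RPKM for X and 14.2 to 18.8 RPKM for the autosomes. This kept 1618 of 1640 detected genes on X and 2222 of 2262 on V, so the medians could hardly move. The shares detected per chromosome were not computed again without these families.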

How the data were processed

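RNA was isolated with a lipid tissue kit, made into stranded mRNA libraries and sequenced in pairs over 75 cycles at IMGM Laboratories, per the labels' protocols. Neither the aligner and read counter nor the build and annotation are given in the sources used. The deposited values are raw counts per gene (gene, exon, exon-exon and intron reads, unique and total), per the file headers. RPKM values were deposited by the authors and equal exon reads per kilobase of exon length and per megaread mapped. For genes with no annotated transcript they equal gene reads per kilobase of gene length, as checked on the values. Gene length, exon length and exon numbers are deposited beside the counts. Exon and intron reads sum to total gene reads in every gene, and the summary tables equal those of each sample.

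Names were matched to WBcel235 by name and place for 42608 of 46699 genes. The genes of the mitochondrial genome were not analysed here. The members, the 46 families and the 25 lists (293 entries) were chosen with earlier results of these data known. Named genes are the 30 with the highest mean RPKM, the 10 with most reads, up to 3 members of each family, the list members, the 10 named genes with the highest intron share and the 20 widest and 10 narrowest ranges. The exceptions, chosen after their values were seen, are rpl-37, bli-6, the genes nested in those with a high intron share, the undetected msp genes and the genes without transcript in the closing section. Spread was estimated with edgeR 4.0.16 (R 4.3.3; TMM factors, filterByExpr, intercept only), tested on simulated data; the rest used Python 3.11.15 and pandas 2.3.3. Values are means ± SD of 3 libraries.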

Additional observations from a re-analysis of the deposited data

How the results depend on the processing

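The number of detected genes kept within 1.5 times of 12615 under every threshold tried, at 9300 for 5 RPKM and 16400 for 1 read in each library, and at 12726 to 12987 with 1 library left out. The share of the 100 most abundant genes was 32.0% by summed RPKM. The intron share was 9.79% without the 100 most abundant genes and 9.73% as a mean over genes. The coefficient of variation was 26.7% with no filter beyond 1 read, 17.9% with at least 10 CPM in each library, and 21.3% to 25.8% with 1 library left out. The lowest correlation was 0.985 with a pseudocount of 0.1, 0.987 with 10, 0.964 over genes with a mean of at least 1 RPKM, 0.952 as Spearman's rho, and 0.989 to 0.992 with 1 library left out. The share of genes with over 2-fold range was 17.2% from 1 RPKM, 6.07% from 100 RPKM, 6.37% on CPM with TMM factors, and 3.08% to 4.20% with 1 library left out, where 2 libraries in place of 3 narrow the range by construction. Scaling and single libraries were tried on the family counts after the data were seen. With TMM factors 34 collagens, 5 vitellogenins and 11 UDP-glucuronosyltransferases exceeded the range. The cause of the other shifts was not tested. No paired analysis was possible because no test between groups was made. The 3 libraries limit every SD given, and at the depth of replicate 1 a gene of 1 kilobase at 1 RPKM rests on few reads.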

Other observations

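Genes without an annotated transcript took 0.650% ± 0.051 of gene reads (SD, n = 3), and 1619 of 26393 had a read. The largest part, 0.346% of gene reads, came from genes that RefSeq lists as pseudogenes, and 0.174% came from ribosomal RNA genes. Among pseudogenes the most reads lay in F07H5.5, with 12179, 24988 and 12612 reads in replicates 1, 2 and 3, and in sdz-29, with 5174, 14508 and 6830 reads, all uniquely placed. F07H5.5 overlaps no other gene in the tables, and neither does sdz-29. The gene plg-1, which is known for the copulatory plug, has no transcript in the tables and had 1963, 6777 and 5245 reads.

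Small RNA genes were near absent from these libraries. None of 15365 genes with 21ur names (piRNAs) and none of 612 tRNA genes had a read. Of 256 microRNA genes 245 had 0 reads, and mir-354 alone was detected, at 688, 716 and 740 RPKM from 1093, 2745 and 2082 reads. It spans 14468382 to 14468491 on chromosome I and overlaps only one end of the ribosomal protein gene rps-20 (14468479 to 14469017) on the same strand, which had 14969, 31174 and 25738 reads. The part of rps-20 messages in these values was not tested.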
